A study of Mus musculus with 6 samples.

Results

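A set of 10 forkhead transcription factor genes, most of them with known roles in embryonic mesenchyme, was followed in mouse embryo fibroblasts. They were Foxc1, Foxc2, Foxf1, Foxf2, Foxl1, Foxd1, Foxq1, Foxp1, Foxp2 and Foxl2, 10 of the 49315 genes counted. Each symbol matched 1 Ensembl identifier through the GENCODE M21 annotation. The genes were chosen by name with earlier results of these counts, the differences between SG and WT lines, already known, so their genotype differences are given as descriptions and support nothing beyond themselves.

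Poly(A) RNA was sequenced from 6 fibroblast lines of C57BL/6 mice at passage 4, grown in DMEM with 10% fetal bovine serum and left untreated. The 3 SG lines (SG1, SG2 and SG3) carried, on both chromosomes, a knock-in allele of MDMX, an inhibitor of p53, with the substitutions W201S and W202G, and the 3 WT lines (WT3, WT9 and WT11) carried wild-type MDMX. All 6 lines were p53-null, so neither genotype had the protein that MDMX restrains. Each line came from 1 embryo and gave 1 library, so a p-value here is measured against the spread among lines of a genotype. That spread holds differences between embryos, cultures and libraries, which cannot be told apart.

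Forkhead proteins bind DNA through a shared winged-helix domain and act as regulators of transcription. In the embryo, Foxf1, Foxf2 and Foxl1 act in the mesenchyme of the gut and lung, where Hedgehog signals from the epithelium switch them on. Foxc1 and Foxc2 act in somites, in the skull and eye mesenchyme and in developing vessels, and Foxd1 marks the stromal progenitors of the kidney. In mice, Foxf1, Foxc2 and Foxl1 lie close together on chromosome 8, and Foxq1, Foxf2 and Foxc1 lie close together on chromosome 13.

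Promoter windows of 300 bases, 250 before and 50 after the annotated start, were taken from RefSeq (GRCm38.p6). They were listed for 5 of the 10 genes, in 7 windows because Foxp1 had 3. The windows of Foxc1, Foxf2 and Foxd1 are shown because Foxc1 and Foxf2 passed the test of genotype and Foxd1 had the widest range of levels among lines. Capitals mark CCAAT boxes (CCAAT, or ATTGG on the other strand) and GC boxes (GGGCGGGG). The Foxc1 window lies at chr13:31806396-31806695, the Foxf2 window at chr13:31625566-31625865 and the Foxd1 window at chr13:98353995-98354294, all on the plus strand and read 5′ to 3′.
Foxc1: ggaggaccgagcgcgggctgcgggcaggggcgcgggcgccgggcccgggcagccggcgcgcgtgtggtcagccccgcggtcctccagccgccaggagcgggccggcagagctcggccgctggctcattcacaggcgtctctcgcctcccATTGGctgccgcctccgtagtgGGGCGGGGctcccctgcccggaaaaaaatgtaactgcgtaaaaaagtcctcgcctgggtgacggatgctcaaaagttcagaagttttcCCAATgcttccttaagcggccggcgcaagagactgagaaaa
Foxf2: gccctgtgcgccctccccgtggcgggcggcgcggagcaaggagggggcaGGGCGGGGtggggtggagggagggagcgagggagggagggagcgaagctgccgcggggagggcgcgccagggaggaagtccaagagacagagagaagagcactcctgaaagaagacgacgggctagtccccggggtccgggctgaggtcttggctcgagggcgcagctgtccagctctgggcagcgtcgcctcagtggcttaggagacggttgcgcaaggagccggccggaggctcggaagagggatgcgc
Foxd1: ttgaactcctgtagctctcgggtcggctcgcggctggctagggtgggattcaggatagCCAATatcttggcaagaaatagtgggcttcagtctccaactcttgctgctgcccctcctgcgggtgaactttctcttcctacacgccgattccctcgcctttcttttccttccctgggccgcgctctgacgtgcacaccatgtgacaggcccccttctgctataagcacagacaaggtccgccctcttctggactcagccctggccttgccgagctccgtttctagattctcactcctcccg

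The windows of Foxc1 and Foxf2 were rich in G and C, at 67.3% and 71.3%, against a median of 52.7% over all 32851 windows, and that of Foxd1 was nearer the median at 57.7%. The Foxc1 window held 32 CpG sites, the Foxf2 window 27 and the Foxd1 window 15. Their CpG content over that expected from base composition was 0.94, 0.79 and 0.62, against a median of 0.38. The Foxc1 window held 2 CCAAT boxes and 1 GC box, the Foxf2 window 1 GC box and 1 E-box (CAGCTG, left in lower case), and the Foxd1 window 1 CCAAT box. On either strand, a CCAAT box was present in 37.4% of all windows, a GC box in 17.6% and the E-box in 16.3%. None of the 7 windows held the forkhead core TGTTTAC, the GLI core GACCACCCA or the TATA box TATAAA, which were found in 3.65%, 0.253% and 13.6% of all windows. These are matches of letters in a short window.

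The libraries held from 54852998 to 64434605 counted reads per SG line and from 49317925 to 65457242 per WT line. Fibroblast markers were found in every line, at very different levels, with Lum at only 2.04 to 2.66 CPM. Col1a1 ranged from 5450 to 6950 and Col1a2 from 3760 to 4780 CPM (counts relative to the library total, scaled by TMM, the trimmed mean of M-values), and the summed level of 10 markers was 15000 to 17900 CPM in SG lines and 16600 to 17100 CPM in WT lines. Xist, the RNA of the inactive X chromosome, reached 399 CPM in SG1, against 343 CPM in WT9, and stayed at 0.565 to 0.7 CPM elsewhere, so each genotype held 1 line with Xist. The litter and the sequencing run of each line are not given in the sources used here.

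Of the 10 genes, 9 had enough reads to be tested and 2 passed an adjusted p of 0.05 in edgeR's quasi-likelihood test over all genes. Foxc1 rose and Foxf2 fell in SG lines. Across the genome 306 of 16068 tested genes passed (1.9%), 130 of them higher (0.809%) and 176 lower (1.1%) in SG. The median log2 fold change was 0.33 over the 9 tested forkhead genes and 0.00 over all tested genes, and the median size without sign was 0.58 and 0.09. The genes were listed with this comparison known, so nothing is read from these shares. Foxc1, Foxc2, Foxd1 and Foxf2 had levels that did not overlap between SG and WT lines, 4 of the 9, where 21.2% of all tested genes did so. An unadjusted p under 0.05 was found for 5 of the 9 and for 15.5% of all tested genes. In bulk RNA, fewer cells of one kind and less RNA per cell cannot be told apart.

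Other fits called different numbers of genes, and the forkhead calls below are to be read beside them. Across the genome the share past the threshold was 1.89% with RLE size factors, 1.88% with upper quartile scaling, 3.33% without a count filter, 5.81% with DESeq2, 1.46% with a robust prior, 2.62% with Xist as a covariate and 4.36% without the lines with Xist. When 1 line was left out, it was 3.53% without SG1, 0.0184% without SG2, 1.35% without SG3, 0.146% without WT3, 2.82% without WT9 and 0.177% without WT11. Without SG2, WT3 or WT11, few genes of any kind thus passed.

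**Figure D1:**
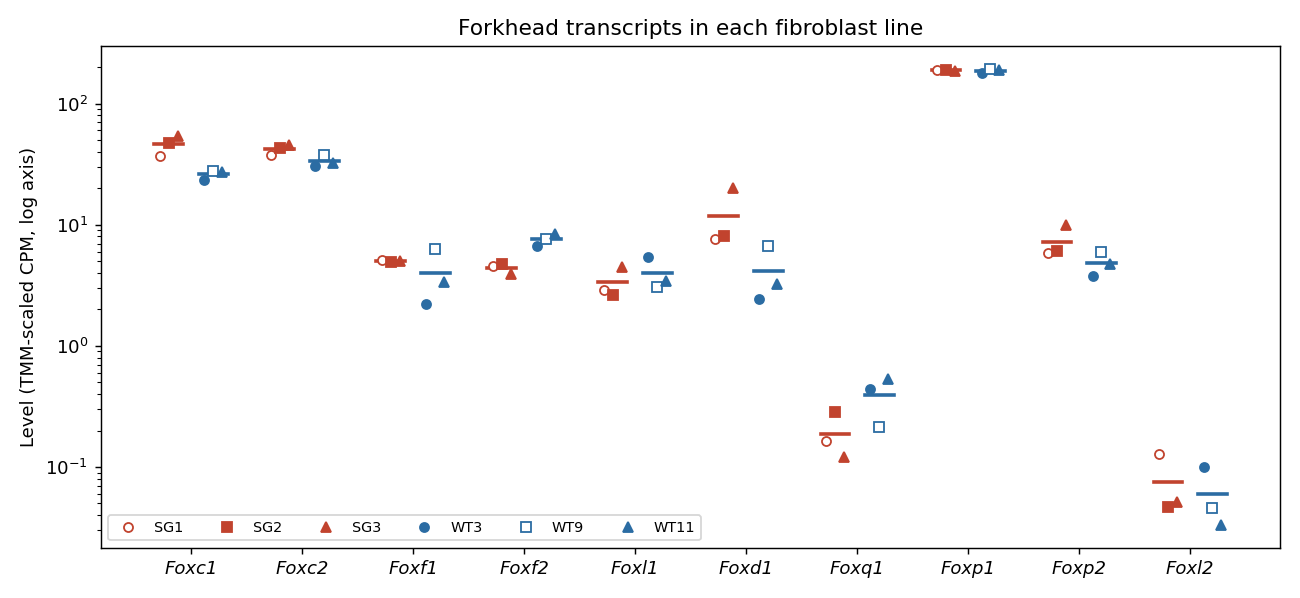
Level of each of the 10 forkhead transcripts in each line, in TMM-scaled CPM on a log axis, with SG lines left of WT lines and bars at the group means (n = 3 each). Hollow symbols are SG1 and WT9, the lines with Xist. Foxp1 lies between 179 and 194 CPM in every line, the Foxc1 points of SG lines (36.9 to 54 CPM) lie above those of WT lines (23.5 to 27.7 CPM), and those of Foxf2 lie below.

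Foxc1 (ENSMUSG00000050295, GRCm38 chr13:31806691-31810643, plus strand, a single exon) is required in mice for the skull, the front of the eye and the somites. It stood at 36.9, 47 and 54 CPM in SG1, SG2 and SG3, against 23.5, 27.7 and 27.3 CPM in WT3, WT9 and WT11. Every SG line was above every WT line. The means were 45.9 ± 8.6 CPM in SG and 26.2 ± 2.29 CPM in WT (SD, n = 3 each), 1.75-fold higher in SG or 0.81 on the log2 scale (standard error, SE, 0.13) (edgeR adjusted p = 0.0308). The call was lost with a robust prior (adjusted p = 0.0682) and without SG2, WT3 or WT11 (0.131, 0.124 and 0.113), with log2 fold changes between 0.68 and 0.99 over 13 other fits.

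Foxc2 (ENSMUSG00000046714, chr8:121116171-121118895, plus strand, a single exon), the close paralog of Foxc1, is known for the valves of lymphatic vessels and the aortic arch. It stood at 37.7, 42.7 and 45.7 CPM in SG1, SG2 and SG3, against 30.5, 37.6 and 32.4 CPM in WT3, WT9 and WT11. The lowest SG line and the highest WT line, both lines with Xist, were almost level. Its log2 fold change of 0.33 (SE 0.09) did not pass (edgeR adjusted p = 0.136). It passed without a count filter (adjusted p = 0.0225), with DESeq2 (0.0207) and without the lines with Xist, where it was 0.49 (adjusted p = 0.00979).

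Foxf2 (ENSMUSG00000038402, chr13:31625816-31631403, plus strand, 2 exon blocks), a gene of the palate and gut mesenchyme and of brain pericytes, stood at 4.55, 4.75 and 3.95 CPM in SG1, SG2 and SG3, against 6.62, 7.69 and 8.39 CPM in WT3, WT9 and WT11. Every SG line was below every WT line. The means were 4.42 ± 0.413 CPM in SG and 7.57 ± 0.892 CPM in WT (SD, n = 3 each), a difference of -0.78 on the log2 scale (SE 0.12), so that the level was 1.71-fold higher in WT (edgeR adjusted p = 0.0271). The call was lost without SG2, SG3, WT3 or WT11 (adjusted p = 0.107, 0.0515, 0.0696 and 0.104) and without the lines with Xist (0.0548). It stayed between -0.86 and -0.70 on the log2 scale over 13 other fits.

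Foxf1 (ENSMUSG00000042812, chr8:121084386-121088144, plus strand, 2 exon blocks), which is needed for the extraembryonic and lateral plate mesoderm and for lung vessels, stood at 5.15, 4.9 and 5 CPM in SG1, SG2 and SG3, against 2.2, 6.33 and 3.35 CPM in WT3, WT9 and WT11. The SG lines lay close together inside the WT range, with SDs of 0.122 CPM in SG and 2.13 CPM in WT. With an SE of 0.33, a log2 fold change of 0.33 did not pass (edgeR adjusted p = 0.689). It was 0.85 without WT9 and 0.05 without WT3, neither of which passed. Fendrr, a long noncoding RNA whose start lies 1.3 kb from that of Foxf1, averaged 0.355 ± 0.121 CPM in SG and 0.286 ± 0.217 CPM in WT (SD, n = 3 each), which is 0.26 apart on the log2 scale (SE 0.53, adjusted p = 0.864).

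Foxl1 (ENSMUSG00000097084, chr8:121127940-121130644, plus strand, a single exon), a marker of the mesenchymal cells beneath the gut epithelium, stood at 2.88, 2.65 and 4.5 CPM in SG1, SG2 and SG3, against 5.4, 3.09 and 3.4 CPM in WT3, WT9 and WT11. The groups overlapped, with WT3 and SG3 the highest lines. Its log2 fold change of -0.24 (SE 0.27, edgeR adjusted p = 0.735) was 0.04 without WT3.

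Foxd1 (ENSMUSG00000078302, chr13:98354242-98356703, plus strand, a single exon), which marks the stromal progenitors of the kidney, had the largest log2 fold change of the 9 tested genes and did not pass. It stood at 7.59, 8.12 and 20 CPM in SG1, SG2 and SG3, against 2.42, 6.71 and 3.26 CPM in WT3, WT9 and WT11. SG3 lay far above the other lines, and WT9 lay near SG1 and SG2. Its difference was 1.51 on the log2 scale (SE 0.48, edgeR adjusted p = 0.174), and the level in the highest line was 8.27 times that in the lowest. That difference was 0.91 without SG3 (adjusted p = 0.296) and 2.06 without WT9. Foxd1 passed without a count filter (adjusted p = 0.0128) and without the lines with Xist, where it was 2.30 (adjusted p = 0.028).

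SG3 also had the highest and WT11 the lowest summed level of 8 macrophage markers. That sum was 26.9, 30.7 and 62.1 CPM in SG1, SG2 and SG3, against 33.1, 31.5 and 11.8 CPM in WT3, WT9 and WT11. Csf1r ranged from 1.63 to 11.8 CPM and Adgre1 from 0.366 to 3.36 CPM, none of the 8 was at 0 in all lines, and none passed the test in edgeR or DESeq2 or had an unadjusted p under 0.05 (0 of 8 each). The part of these cells in the Foxd1 level of SG3 was not tested.

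Foxq1 (ENSMUSG00000038415, chr13:31558324-31560976, plus strand, a single exon), known in mice from the satin coat, was close to the count limit. It had 9, 18 and 7 reads in SG1, SG2 and SG3, against 22, 14 and 32 reads in WT3, WT9 and WT11, or 0.163, 0.282 and 0.12 CPM against 0.44, 0.214 and 0.533 CPM. SG2 and WT9 overlapped. At this depth the log2 fold change of -1.03 (SE 0.45) did not pass (edgeR adjusted p = 0.33) or pass in any of 13 other fits. Foxq1 shares 1010 exon bases with A530084C06Rik on the opposite strand, which had 3, 9 and 2 reads in SG1, SG2 and SG3 and 5, 13 and 7 reads in WT3, WT9 and WT11. As the strand setting of the counting is not known here, reads of the 2 genes may not be told apart.

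Foxp1 (ENSMUSG00000030067, chr6:98925338-99522721, minus strand, 34 exon blocks), a repressor with roles in the heart, lung and B cells, had the steadiest level of the set. It stood at 191, 190 and 186 CPM in SG1, SG2 and SG3, against 179, 194 and 189 CPM in WT3, WT9 and WT11, a span of 1.09-fold. Its log2 fold change was 0.01 (SE 0.04, edgeR adjusted p = 0.905) and lay between -0.02 and 0.04 over 13 other fits, the negative value without WT3.

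Foxp2 (ENSMUSG00000029563, chr6:14901349-15441977, plus strand, 27 exon blocks), studied for its part in speech and vocal learning, stood at 5.82, 6.06 and 9.89 CPM in SG1, SG2 and SG3, against 3.8, 5.95 and 4.75 CPM in WT3, WT9 and WT11. SG3 was the highest line and WT3 the lowest, and WT9 overlapped the SG lines. Foxp2 did not pass at a log2 fold change of 0.58 (SE 0.24) (edgeR adjusted p = 0.299), and it was at 0.29 without SG3.

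Foxl2 (ENSMUSG00000050397, chr9:98955607-98956847, plus strand, a single exon), the factor of ovarian granulosa cells and of the eyelid, was nearly silent. It had 7, 3 and 3 reads in SG1, SG2 and SG3, against 5, 3 and 2 reads in WT3, WT9 and WT11, and was removed by the count filter. No fold is given. Of 7 markers of gonadal support cells, 5 were under 1 CPM in all lines, with Nr5a1 between 0.0333 and 0.199 CPM and Amhr2 between 0.0833 and 0.453 CPM. Their sum of 39.2 to 58.3 CPM in SG lines, against 35.9 to 44.1 CPM in WT lines, was mostly the secreted protein gene Fst (33.4 to 55.7 CPM). Of the 4 tested, 0 passed in edgeR or DESeq2, with 1 at an unadjusted p under 0.05.

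**Figure D2:**
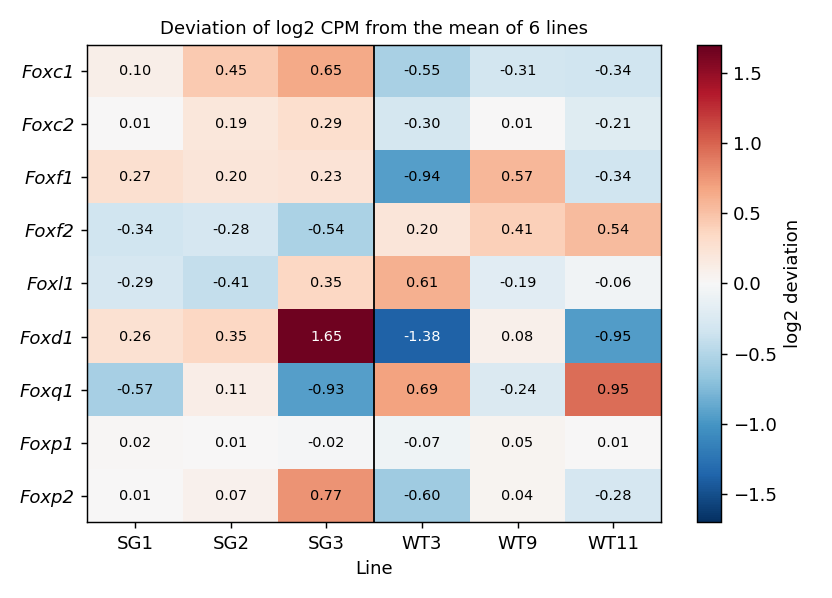
Deviation of the log2 CPM (prior count 2) of each tested forkhead gene from its mean over the 6 lines, with SG lines left of the black line and WT lines right of it. Red is above and blue below the mean. The strongest colours are those of Foxd1 in SG3 (1.65) and WT3 (-1.38), and the Foxp1 row stays between -0.07 and 0.05.

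The lines also differed within each genotype. SG3 was the highest line for 4 of the 9 tested genes (Foxc1, Foxc2, Foxd1 and Foxp2) and the lowest for 2 (Foxf2 and Foxq1). WT3 was the lowest line for 6 (Foxc1, Foxc2, Foxf1, Foxd1, Foxp1 and Foxp2) and the highest for Foxl1. SG1 was neither the highest nor the lowest for any of them. For Foxc1, Foxc2, Foxd1 and Foxf2 the groups did not overlap, so their highest and lowest lines had to differ in genotype. No share over all tested genes was computed, so nothing is read from these counts. Within WT, WT9 stood nearer to SG lines than WT3 and WT11 did for Foxd1, Foxp2, Foxc2 and Foxq1, among others. Its log2 deviations there were 0.08, 0.04, 0.01 and -0.24. For Foxf2 it was WT3 that stood nearest, at 0.2. WT9 is a line with Xist, as is SG1, and the part of sex in these levels was not tested beyond the fits with and without both lines.

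Levels of different genes were compared per kb of exon, using the exon lengths of the deposited files. Foxc2 and Foxp1 led, at 15.4 ± 1.48 and 13.8 ± 0.198 CPM per kb in SG and 12.3 ± 1.35 and 13.6 ± 0.57 CPM per kb in WT (SD, n = 3 each). Foxc1 followed at 11.6 ± 2.18 CPM per kb in SG and 6.62 ± 0.58 CPM per kb in WT. Next came Foxd1, Foxf2, Foxf1 and Foxl1, with means over all 6 lines of 3.26, 2.54, 1.86 and 1.35 CPM per kb, and then Foxp2 at 0.37, Foxq1 at 0.11 and Foxl2 at 0.0543 CPM per kb. Neighbours in this order overlapped over the 6 lines except Foxl1 above Foxp2 and Foxp2 above Foxq1. Foxc2 was above Foxp1 in 2 of 6 lines, and Foxd1 was above Foxf2, and Foxf2 above Foxf1, in 3 of 6 lines.

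Foxc2 and Foxp1 stood at percentiles 76.6 and 76.3 of all tested genes on this per-kb scale, Foxc1 at 68.2 and Foxq1 at 7.1. The order depends on annotation. The exon length in the files is shorter than the longest coding transcript in GENCODE M21 by 1891 bases for Foxc1, 2602 for Foxd1, 2190 for Foxq1 and 2015 for Foxl2, and equals it for Foxc2, Foxf1, Foxf2 and Foxl1. The lengths of Foxp1 and Foxp2 join many alternative exons, which lowers their values per kb.

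Summed over the 10 genes, the level was 45.8, 50.2 and 58.2 CPM per kb in SG1, SG2 and SG3, against 37.3, 45.1 and 40.6 CPM per kb in WT3, WT9 and WT11. The share of Foxc1 in this sum was 20.4%, 23.7% and 23.5% in SG1, SG2 and SG3, against 16%, 15.5% and 17% in WT3, WT9 and WT11. That of Foxf2 was 4.2%, 4% and 2.88% in SG lines, against 7.51%, 7.21% and 8.76% in WT lines. Foxf2 was lower and the sum higher in every SG line than in every WT line, so this share could not overlap. Both shares rest on the same counts as the Foxc1 and Foxf2 calls and add nothing to them. The share of Foxc2 overlapped, at 28.8% to 31.2% in SG and 29.3% to 30.5% in WT.

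Ratios between members within a line do not depend on library scaling, and 8 were computed. The ratio of Foxc1 to Foxc2 was 0.673, 0.759 and 0.813 in SG1, SG2 and SG3, against 0.533, 0.509 and 0.58 in WT3, WT9 and WT11. Foxc2 was thus the more abundant of the pair per kb in every line. The ratio of Foxf1 to Foxf2 was 1.11, 1.01 and 1.24 in SG1, SG2 and SG3, against 0.325, 0.805 and 0.39 in WT3, WT9 and WT11, so that Foxf1 matched or exceeded Foxf2 in SG lines and lay below it in WT lines. Foxc1 and Foxf2, neighbours on chromosome 13 that moved in opposite directions, had a ratio of 4.85, 5.92 and 8.16 in SG lines, against 2.13, 2.16 and 1.94 in WT lines. On the log2 scale it averaged 2.62 ± 0.38 in SG and 1.05 ± 0.08 in WT (SD, n = 3 each). Foxc1 was higher and Foxf2 lower in every SG line than in every WT line. This ratio therefore could not overlap between the groups and adds nothing to the 2 calls.

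The groups did not overlap in 4 of the 8 ratios, those just given and that of Foxd1 to Foxl1, which was 2.9, 3.37 and 4.88 in SG1, SG2 and SG3, against 0.492, 2.39 and 1.06 in WT3, WT9 and WT11. They overlapped in the ratios of Foxp1 to Foxp2, of Foxf1 to Foxl1, of Foxf1 to Foxc2 and of Foxd1 to Foxc1. The pairs were picked from genes chosen with their genotype differences known. No share over other pairs of genes was computed, so nothing is read from this count. The longest transcripts of each paralog pair share stretches of sequence, the longest being 53 bases for Foxc1 and Foxc2, 41 for Foxf1 and Foxf2 and 35 for Foxp1 and Foxp2. Read length and the treatment of reads that align to several places are not given in the sources used here.

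**Figure D3:**
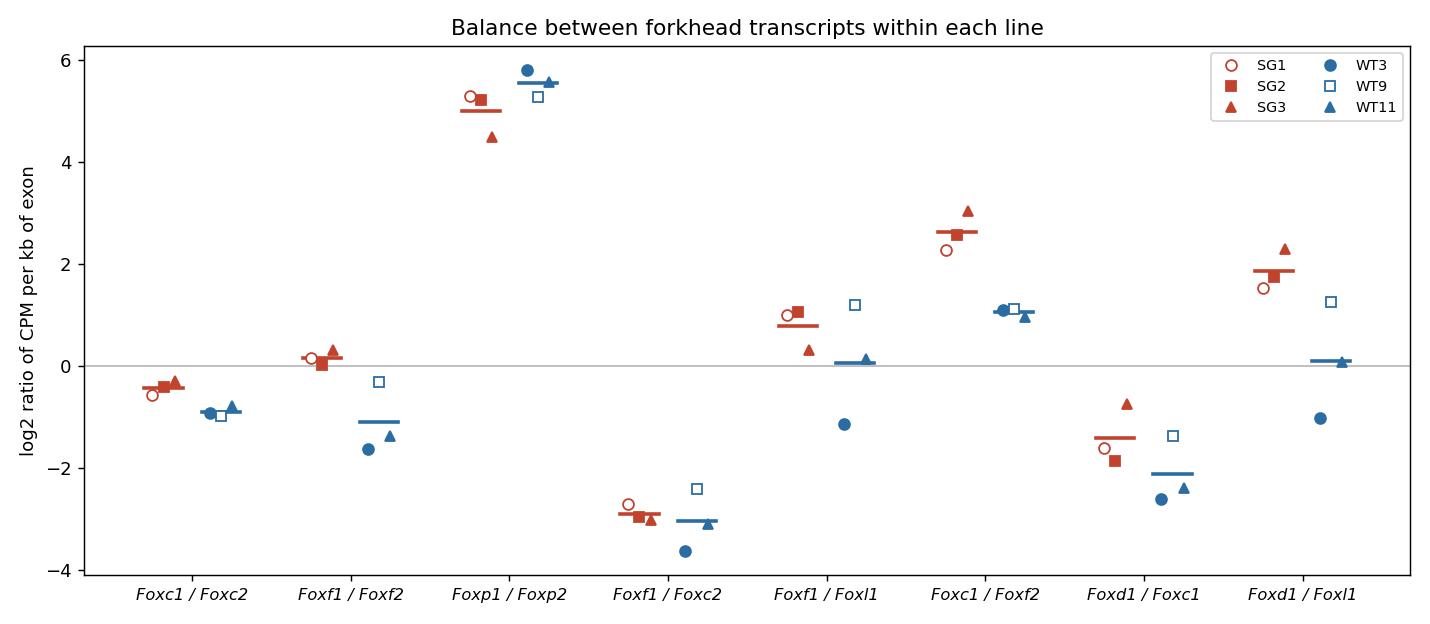
Log2 ratio of the level per kb of exon between 2 forkhead genes in each line, for all 8 ratios computed, with SG lines left of WT lines and bars at the group means (n = 3 each). Hollow symbols are SG1 and WT9. The Foxc1 to Foxf2 points of SG lines (2.28 to 3.03) lie above those of WT lines (0.96 to 1.11), and the Foxf1 to Foxl1 points overlap.

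On chromosome 13 the start of Foxf2 lies 67.5 kb from that of Foxq1 and 180.9 kb from that of Foxc1, with no other tested gene within 500 kb of Foxq1. Across this stretch Foxf2 fell (log2 fold change -0.78, SE 0.12) and Foxc1 rose (0.81, SE 0.13), and Foxq1 was at -1.03 (SE 0.45) without passing. On chromosome 8 Foxf1, Foxc2 and Foxl1 lie within 43.6 kb of each other, and their log2 fold changes were 0.33, 0.33 and -0.24, none past the threshold. Mthfsd, whose start lies between those of Foxf1 and Foxc2, was at 0.11 (SE 0.06, adjusted p = 0.476). Of 119 other genes with a start within 500 kb of any of the 10 genes, 29 were tested and 0 passed in edgeR or DESeq2, with 5 at an unadjusted p under 0.05. Their median log2 fold change was 0.01. The smallest p was that of Pik3cb, a kinase subunit gene 185 kb from Foxl2, averaging 68.5 ± 4.93 CPM in SG lines, against 59.8 ± 2.38 CPM in WT lines (SD, n = 3 each, log2 fold change 0.20, SE 0.06, edgeR adjusted p = 0.148).

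**Figure D4:**
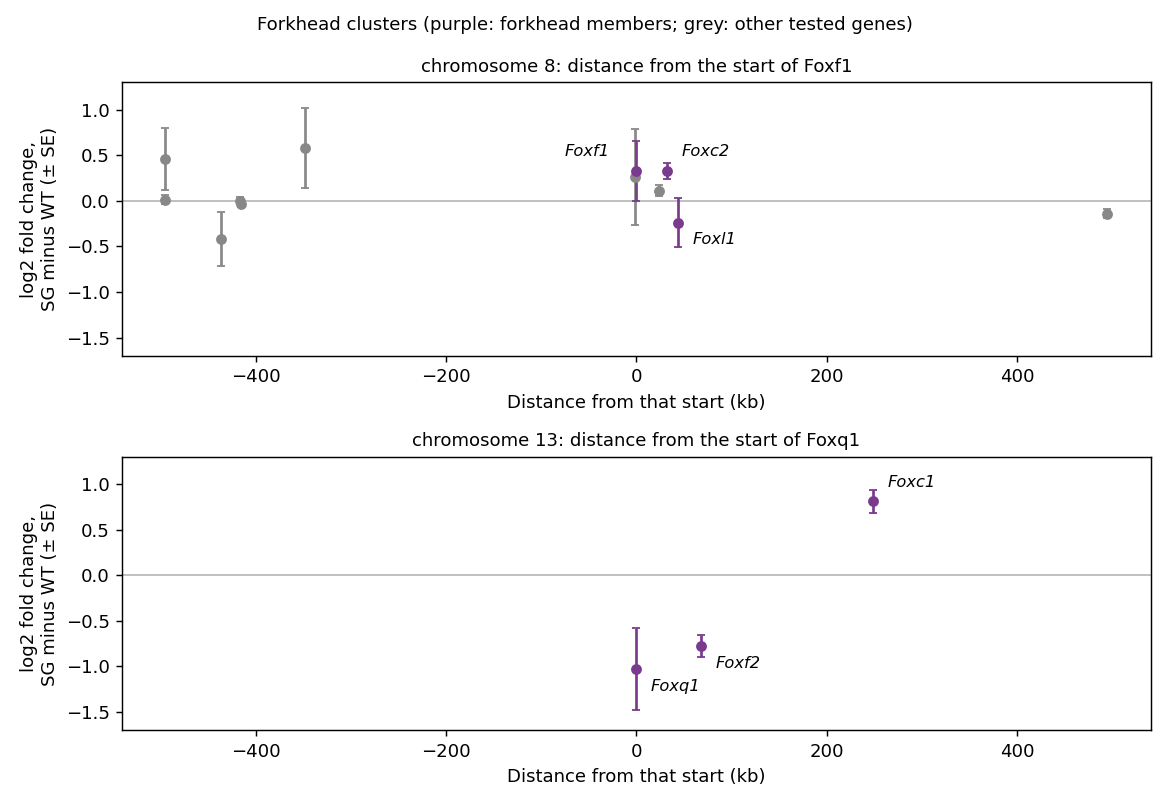
Log2 fold change, SG minus WT, with its SE, of tested genes against the distance of their start from that of Foxf1 (chromosome 8) or Foxq1 (chromosome 13), in kb. Purple marks forkhead genes of the set and grey other tested genes. On chromosome 13 Foxc1 (0.81) lies above 0 and Foxf2 (-0.78) and Foxq1 (-1.03) lie below, and on chromosome 8 the 3 forkhead genes lie between -0.24 and 0.33.

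The rest of the forkhead family was described beside the members. Of 34 other forkhead genes in the files, 19 were tested and 0 passed in edgeR, with 3 at an unadjusted p under 0.05 and 2 called by DESeq2. Their median log2 fold change was 0.00, and its median size without sign was 0.05, against 0.58 for the 9 tested members. The members were chosen with their genotype differences known, so nothing is read from the larger size. Foxo1, a target of insulin signalling, was at 17.3, 15.9 and 16.5 CPM in SG1, SG2 and SG3, against 21.6, 18.5 and 21.7 CPM in WT3, WT9 and WT11. Its log2 fold change of -0.32 (SE 0.08) did not pass (edgeR adjusted p = 0.0881), but did so without a count filter (0.0261), with DESeq2 (0.0172), without the lines with Xist (0.0236) and without WT9 (0.0272). Widely expressed members lay near 0. The cell cycle factor Foxm1 was at -0.11 (SE 0.04, adjusted p = 0.223), Foxk2 at -0.01 (SE 0.05) and Foxp4 at -0.03 (SE 0.04).

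Hedgehog signalling drives Foxf1, Foxf2 and Foxl1 in the gut and lung. All 11 genes of a Hedgehog list were tested and 0 passed in edgeR, with 2 at an unadjusted p under 0.05 and 1 called by DESeq2, and their median log2 fold change was -0.08. The smallest p was that of Hhip, a surface inhibitor of Hedgehog ligands that the pathway itself induces, at 8.77, 6.17 and 4.95 CPM in SG1, SG2 and SG3, against 14.5, 11.8 and 12.4 CPM in WT3, WT9 and WT11. The SG lines were below the WT lines, at -0.96 on the log2 scale (SE 0.19, edgeR adjusted p = 0.0541). It passed without a count filter (0.000822), with DESeq2 (2.17e-05), with Xist as a covariate (0.0462), without the lines with Xist (0.00567) and without SG1 (0.00566). The other gene with an unadjusted p under 0.05 was Gli2, which was slightly higher in every SG line than in every WT line. Its log2 fold change was 0.17 (SE 0.04, edgeR adjusted p = 0.1). The targets Gli1 and Ptch1 had log2 fold changes of -0.61 (SE 0.32, adjusted p = 0.423) and 0.16 (SE 0.08, adjusted p = 0.402), and the groups overlapped for both.

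Genes of the regions where the forkhead factors act were counted in the remaining lists. These lists and the Hedgehog list were chosen with earlier results of these data known, so nothing is read from their counts. Of all tested genes, 1.9% passed in edgeR, 15.5% had an unadjusted p under 0.05 and 5.81% were called by DESeq2. Of 12 tested genes of gut and lateral plate mesenchyme 0 passed in edgeR, with 4 at an unadjusted p under 0.05 and 3 called by DESeq2. The smallest p was that of Hand2, a limb and heart factor, averaging 5.32 ± 0.889 CPM in SG lines, against 8.38 ± 0.58 CPM in WT lines (SD, n = 3 each, log2 fold change -0.66, SE 0.13, edgeR adjusted p = 0.0535). Hand2 passed without a count filter (adjusted p = 0.00375), with DESeq2 (0.000521), with Xist as a covariate (0.0322), without the lines with Xist (0.0477) and without SG1 (0.0248). Of 9 tested genes of somites and sclerotome 0 passed in edgeR, with 5 at an unadjusted p under 0.05 and 2 called by DESeq2. The smallest p was that of Pax3, a factor of the dermomyotome and neural crest, averaging 1.13 ± 0.389 CPM in SG lines, against 3.25 ± 0.818 CPM in WT lines (SD, n = 3 each, log2 fold change -1.53, SE 0.30, edgeR adjusted p = 0.0502). Pax3 passed without a count filter (adjusted p = 0.000894), with DESeq2 (4.14e-05), with Xist as a covariate (0.0313), without the lines with Xist (0.0454) and without SG1 (0.0314).

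Of 10 tested genes of kidney stroma and intermediate mesoderm, 2 rose and 0 fell. Meis2, among them, encodes a homeodomain cofactor. It was at 50.2, 58.3 and 65.8 CPM in SG1, SG2 and SG3, against 36.9, 41.4 and 39.7 CPM in WT3, WT9 and WT11 (log2 fold change 0.56, SE 0.09, edgeR adjusted p = 0.0322). The groups did not overlap. The call was lost without SG2 (adjusted p = 0.135), WT3 (0.133) or WT11 (0.122) and with a robust prior (0.0533). The median log2 fold change of the list was 0.07.

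The last list was of facial and eye mesenchyme of the neural crest, a site of Foxc1 and Foxc2 action. Of its 15 tested genes 1 was higher and 4 were lower, with a median log2 fold change of -0.33. An unadjusted p under 0.05 was found for 10, and 9 were called by DESeq2. Alx1, a factor of the facial midline, was at 7.66, 12.7 and 13.4 CPM in SG1, SG2 and SG3, against 1.98, 2.87 and 3.25 CPM in WT3, WT9 and WT11 (log2 fold change 2.05, SE 0.25, edgeR adjusted p = 0.0155). The lower genes with the smallest p were Tfap2b, an AP-2 factor, at -3.81 (SE 0.55, adjusted p = 0.0229), Msx1, a homeobox gene of the tooth and palate, at -2.52 (SE 0.37, adjusted p = 0.0241), and Tfap2a at -0.89 (SE 0.15, adjusted p = 0.0352). These 4 calls were lost without SG2 (adjusted p from 0.083 for Alx1 to 0.138 for Tfap2a), WT3 (0.0675 for Alx1 to 0.113 for Tfap2a) or WT11 (0.0562 for Alx1 to 0.0955 for Msx1). That of Tfap2b was also lost with a robust prior (0.0661), and that of Tfap2a without SG3 (0.0665) or WT9 (0.0527). Over all lists and neighbours together, 7 of 86 tested genes passed, against 306 of 16068 over all tested genes (1.9%). The lists were chosen with earlier results known, so nothing is read from this count.

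The genes whose levels followed a forkhead gene most closely over the 6 lines were found by the root mean square (RMS) difference of centred log2 CPM, among 11499 or 11500 candidates for each member whose range reached 1 on the log2 scale. Npy1r, a neuropeptide Y receptor, and Mtcl1 were nearest to Foxc1, with RMS differences of 0.06 and 0.07 beside an SD of 0.48 for Foxc1 itself. Smim10l2a and Tmem200a were nearest to Foxf2, at 0.10 and 0.11 beside 0.44. For Foxd1 the nearest were Pax1, a sclerotome factor, and Eya2, at 0.32 and 0.37 beside 1.07. Pax1 was at 9.57, 9.54 and 15.3 CPM in SG1, SG2 and SG3, against 3.62, 9.46 and 4.5 CPM in WT3, WT9 and WT11, with SG3 highest and WT9 near SG1 and SG2 as for Foxd1. Slc1a6, a glutamate transporter gene, was nearest to Foxp2 (0.11 beside 0.46). Srpx2 and Actg2 were nearest to Foxf1 (0.23 and 0.24 beside 0.55), Ifi204 and Impact to Foxl1 (0.13 and 0.14 beside 0.40), and Apcdd1 and Afap1l1 to Foxq1 (0.26 and 0.28 beside 0.73). These are descriptions over 6 lines. Each gene was picked for its likeness over these same lines, so a pattern shared with a forkhead gene, as for Pax1, follows from the search.

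Foxc1, Foxc2 and Foxf1 are also genes of vessels. Of 8 endothelial markers 6 were under 1 CPM in all lines, with Pecam1 between 0.0342 and 0.172 CPM and Cdh5 between 0.117 and 0.376 CPM. Their sum of 53.1 to 72.6 CPM in SG and 39.5 to 54.5 CPM in WT was mostly Kdr (38.1 to 70.5 CPM), and 0 of the 5 tested passed in edgeR, with 1 at an unadjusted p under 0.05 and 1 called by DESeq2. The summed level of 8 epithelial markers was 18.9 to 46.8 CPM in SG and 12.4 to 26 CPM in WT, with Epcam between 0.28 and 0.392 CPM and Cdh1 between 0.0362 and 0.141 CPM. That sum was mostly Krt18 (8.39 to 23.3 CPM) and Cldn4 (2.81 to 19 CPM). Krt5, a keratin of basal epithelium, had 162 and 107 reads in SG1 and SG2 and 0 in SG3 and all WT lines. Of the 5 tested, 0 passed in edgeR, with 2 at an unadjusted p under 0.05 and 1 called by DESeq2. Neural markers summed to 63.7 to 70.3 CPM in SG and 77.1 to 83.6 CPM in WT, with Tubb3 between 36.1 and 46.6 CPM and Elavl3 between 0.0313 and 0.26 CPM. The sum was mostly Tubb3 and Map2 (16 to 30.3 CPM). These markers did not move together, with log2 fold changes of -0.60 (SE 0.13) for Map2 and 0.79 (SE 0.17) for Elavl4. Of the 6 tested, 0 passed in edgeR, with 4 at an unadjusted p under 0.05 and 3 called by DESeq2. No marker of any list was at 0 in all 6 lines. All 10 fibroblast markers were tested, and 1 passed in edgeR, with 4 at an unadjusted p under 0.05 and 4 called by DESeq2. The marker that passed was Thy1, which fell in SG lines (log2 fold change -0.72, SE 0.07, edgeR adjusted p = 0.00802, and 0.0629 without SG2). The part of such cells in the forkhead levels was not tested.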

How the data were processed

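Each deposited file gives unnormalised counts, in whole reads for each Ensembl gene, with gene and exon positions and the exon length, as featureCounts writes them, per the file headers. Per the submitters' processing notes, the tools were Trimmomatic 0.36, STAR 2.5.2b, featureCounts from Subread 1.5.2 and DESeq2, with GRCm38. The annotation release, strand setting and treatment of multimapping reads are not given in the sources used here. GENCODE M21 gave a symbol for 49056 identifiers and none for 259. Positions are those of the files.

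Counts were tested in R 4.3.3 with edgeR 4.0.16. The default filterByExpr (minimum count 10, total 15) removed genes of few reads. After TMM scaling, glmQLFTest compared SG with WT, 2-sided and without covariates. Benjamini-Hochberg adjustment covered all 16068 genes tested (threshold 0.05), and each SE is the size of the log2 fold change over the root of F. CPM use the TMM-scaled total of tested genes. Foxl2 and Foxq1 rest on few reads. Groups came from the sample titles.

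The alternatives were RLE and upper quartile scaling, no count filter, DESeq2 1.42.0, a robust prior, Xist as a covariate, leaving out the lines with Xist, and leaving out each line. The members and lists were chosen with earlier results of these data known. Genes named beside the 10 members were, per list, up to 4 past the threshold with the smallest p, or else the gene with the smallest p, the 2 first markers of each cell type list, and the 2 nearest genes of like pattern whose average log2 CPM reached 1. Some genes that this rule takes are not reported here. Gli1, Gli2, Ptch1, Fendrr, Mthfsd, Foxm1, Foxo1, Foxk2, Foxp4, Kdr, Krt5, Krt18, Cldn4, Fst, Lum, Map2, Elavl4 and Thy1 were chosen outside this rule, after their values were seen.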

Additional observations from a re-analysis of the deposited data

How the results depend on the processing

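Depth limits the low genes, above all Foxl2 and Foxq1, and 3 lines per genotype limit every call. RLE and upper quartile scaling kept the same 2 forkhead calls (Foxc1 and Foxf2), and these scalings moved the median of all genes by at most 0.01. The count of all genes past the threshold was 306. It was 959 without a count filter, 934 with DESeq2 and 703 without the lines with Xist, and it ranged from 3 (without SG2) to 579 (without SG1) when 1 line was left out, with 24 without WT3, 29 without WT11 and 460 without WT9. Of the forkhead members, 2 passed. That count was 4 without a count filter, 3 with DESeq2 and without the lines with Xist, 1 with a robust prior, and 0 to 2 when 1 line was left out, with 0 without SG2, WT3 or WT11. Of the other forkhead genes 0 passed, against 2 without a count filter, with DESeq2 and without the lines with Xist, 1 with Xist as a covariate, and 0 to 2 when 1 line was left out. Of the genes of the context lists and neighbours 7 passed, against 20 without a count filter, 17 with DESeq2, 17 without the lines with Xist, 13 with Xist as a covariate, 4 with a robust prior, and 0 to 14 when 1 line was left out, with 0 without SG2, WT3 or WT11. Without WT3 the log2 fold change of Foxl1 was 0.04 (range -0.51 to 0.04 over the fits without 1 line) and that of Foxp1 was -0.02 (-0.02 to 0.04), each opposite in sign to its value with all lines. The fit without a count filter tested 28807 genes, and the fits without a line used fewer samples. Otherwise the cause was not tested. No paired analysis was possible because the genotypes share only the line number 3, which names separate embryos.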
